A study of Ovis aries with 4 samples.

Results

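The genes KDR, F8, RELN, NR5A2 and GNG11 were followed through single-cell transcriptomes of the lactating sheep mammary gland. They were taken by symbol from the deposited gene list, and all 5 were found among its 20150 genes, of which 774 carried a symbol. Their identifiers were ENSOARG00000001060 for KDR, ENSOARG00000003319 for F8, ENSOARG00000000465 for RELN, ENSOARG00000015980 for NR5A2 and ENSOARG00000001101 for GNG11. Mammary tissue of 4 lactating ewes was measured by droplet sequencing with 1 library per ewe, in which each captured RNA molecule is counted through a unique molecular identifier (UMI). There were 2 libraries titled LH and 2 titled LL. The series text names late lactation LL and gives peak lactation as the other stage, so LH was taken as peak lactation by elimination. Breed, age and treatment were not given in the labels used here.

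KDR encodes VEGF receptor 2, the receptor through which VEGF-A drives the growth and permeability of blood vessels, and lymphatic endothelium carries it as well. F8 encodes coagulation factor VIII, a cofactor of the clotting cascade that endothelial cells make in mammals. RELN encodes reelin, a secreted glycoprotein that guides neuron positioning in the brain and is made by lymphatic endothelium in mice. NR5A2 encodes a nuclear receptor (LRH-1) known from liver, gut and ovary, and GNG11 encodes a gamma subunit of heterotrimeric G proteins. During lactation the mammary alveoli are wrapped in a dense capillary bed that supplies the secretory epithelium.

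The LH libraries held 5574 and 8659 kept cells and the LL libraries 11352 and 10046, with a median of 2591 to 3264.5 UMIs per cell. Clusters were built without the 5 genes, and 3 of the 27 clusters were endothelial in their leading genes. A cluster is called here by 2 of its leading genes, and the 5 genes were allowed into that ranking after the clusters were made. The SELP/SELE cluster carried, over its libraries together, all 3 blood endothelium markers that have a symbol here, the selectin genes SELP and SELE and the endothelin gene EDN1, and is blood endothelium-like. Of its 720 cells, 688 came from LL replicate 1, so that it may stand for that library and not for a type. The IGFBP3/ABCG2 cluster held 304 cells, with EDN1 at 66.2, 42.9 and 65.5 UMIs per 1000000 UMIs of the same cells (CPM) in LH replicate 2 and LL replicates 1 and 2 and SELE at 0 in each. The RELN/IGFBP5 cluster held 878 cells, with SELP at 3.25 CPM or less. Of 14 listed lymphatic markers, 0 had a symbol here, so whether the RELN/IGFBP5 cluster is lymphatic could not be checked, and neither it nor the IGFBP3/ABCG2 cluster was given a cell type. Blood and lymphatic endothelium are therefore not set against each other by name, and the levels are given by cluster. LL replicate 1 stands apart in its number of SELP/SELE cells. They held 61.5% of its KDR, 47.0% of its F8, 14.8% of its RELN, 84.5% of its NR5A2 and 37.7% of its GNG11 UMIs. For whole libraries and for the 3 endothelial clusters together, log2 changes of the 5 genes are given with and without that library. Between 15 and 39 cell barcodes were shared by each pair of libraries.

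RELN was highest in the RELN/IGFBP5 cluster in the 3 libraries where the endothelial clusters could be compared, LH replicate 1 holding 0 IGFBP3/ABCG2 and 3 SELP/SELE cells. In the RELN/IGFBP5 cluster its level was 1386 CPM in LH replicate 1 (57 cells), 1935 in LH replicate 2 (17 cells), 1497 in LL replicate 1 (460 cells) and 1242 in LL replicate 2 (344 cells), and 72.1% to 89.5% of the cells held at least 1 RELN UMI. In the IGFBP3/ABCG2 cluster it was 0 CPM in LH replicate 2, 30.6 in LL replicate 1 and 7.28 in LL replicate 2. No RELN UMI was seen in 56 cells of LH replicate 2, which allows up to 5.36% of cells with a UMI at a median depth of 2999.5 UMIs and sets no limit on cells expressing the gene. The lowest level in the RELN/IGFBP5 cluster lay far above the highest in the IGFBP3/ABCG2 cluster. T cell-like clusters, which served as a common background level, held RELN at 2.58 to 3.77 CPM, with a UMI in 0.68% to 1.03% of cells. Their median depth was 2125 to 3090 UMIs, beside 1875 to 4234 in the RELN/IGFBP5 cluster.

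NR5A2 ran the other way. It stood at 143 CPM in the SELP/SELE cells of LL replicate 1 (95% Poisson interval 134 to 154), with a UMI in 38.7% of cells, and at 177 CPM in the 16 SELP/SELE cells of LL replicate 2 (116 to 260). In the IGFBP3/ABCG2 cluster it was 82.8 CPM in LH replicate 2, 116 in LL replicate 1 and 91.0 in LL replicate 2. In the RELN/IGFBP5 cluster it was 9.26, 0, 6.49 and 5.94 CPM in LH replicates 1 and 2 and LL replicates 1 and 2. Every NR5A2 level in the RELN/IGFBP5 cluster lay below every level in the IGFBP3/ABCG2 cluster. With 17 cells of LH replicate 2 the 0 allows a share of up to 17.6% of cells with a UMI. The T cell-like background was 0 to 0.24 CPM. The 13 SELP/SELE cells of LH replicate 2 gave 26.5 CPM from 2 UMIs (3.21 to 95.7). These intervals, and all others here, cover counting error only.

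**Figure D1:**
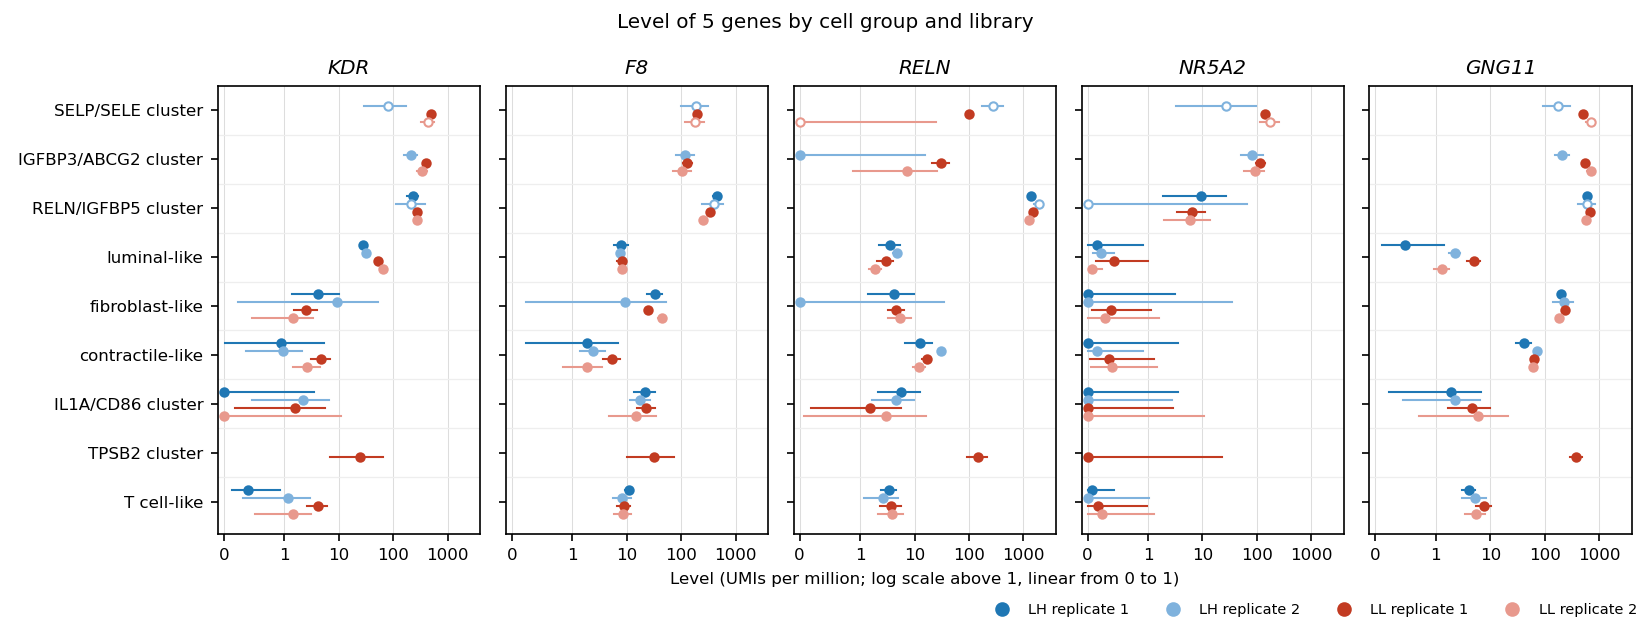
Level of KDR, F8, RELN, NR5A2 and GNG11 in CPM (log scale above 1, linear from 0 to 1) in 9 groups of cells, with 1 point per library, its exact 95% Poisson interval as a bar and open points for groups under 20 cells; groups under 10 cells are not drawn. RELN lies above 1000 only in the RELN/IGFBP5 cluster, NR5A2 lies near or above 100 in the SELP/SELE and IGFBP3/ABCG2 clusters of the LL libraries, and KDR, F8 and GNG11 are high in all 3 endothelial clusters.

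KDR, F8 and GNG11 lay above the T cell-like background in each endothelial cluster of each library with at least 10 of its cells. KDR was 485 CPM in the SELP/SELE cells of LL replicate 1 and 430 in those of LL replicate 2, with 79.5 (29.2 to 173) in 13 cells of LH replicate 2. It was 211, 407 and 342 CPM in the IGFBP3/ABCG2 cluster of LH replicate 2 and LL replicates 1 and 2, and 232, 215, 272 and 271 in the RELN/IGFBP5 cluster in LH replicates 1 and 2 and LL replicates 1 and 2. The VEGF receptor gene was thus higher in the IGFBP3/ABCG2 than in the RELN/IGFBP5 cells of both LL libraries but not of LH replicate 2. After thinning every cell to 1000 UMIs, KDR was seen in 35.3% of SELP/SELE, 29.3% of IGFBP3/ABCG2 and 23.5% of RELN/IGFBP5 cells of LL replicate 1. In LL replicate 2 the same shares were 25%, 29.3% and 21.2%.

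F8 was highest in the RELN/IGFBP5 cluster, where its level was 460 and 394 CPM in LH replicates 1 and 2 and 334 and 253 in LL replicates 1 and 2. It was 194 and 177 CPM in the SELP/SELE cells of LL replicates 1 and 2, and 120, 131 and 106 in the IGFBP3/ABCG2 cluster of LH replicate 2 and LL replicates 1 and 2. Every F8 level in the RELN/IGFBP5 cluster lay above these levels of the other clusters. In each LL library the factor VIII gene was highest in RELN/IGFBP5, then SELP/SELE, then IGFBP3/ABCG2 cells. The T cell-like background was 8.31 to 11.1 CPM, below all of these. Contractile-like cells held F8 at 1.84 to 5.36 CPM, so the T cell-like level is not the lowest for this gene.

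GNG11 gave 602, 591, 665 and 573 CPM in the RELN/IGFBP5 cluster in LH replicates 1 and 2 and LL replicates 1 and 2. It gave 211, 555 and 703 CPM in the IGFBP3/ABCG2 cluster of LH replicate 2 and LL replicates 1 and 2, and 502 and 696 in the SELP/SELE cells of LL replicates 1 and 2. The ranges of this G protein subunit overlapped between all 3 clusters, so its order among them does not exceed the spread between libraries. Ordered by the mean over libraries of at least 20 cells, the 3 endothelial clusters took the first 3 places of 27 for KDR, F8, NR5A2 and GNG11. The SELP/SELE cluster entered this order from LL replicate 1 alone. For F8 the third place, IGFBP3/ABCG2 at 119 ± 12.6 CPM (SD, n = 3 libraries), lay within the spread of the DCN/FGF10 cluster, at 107 ± 49.1 (n = 2). For GNG11 the third place, IGFBP3/ABCG2 at 490 ± 252, was followed by a cluster led by TPSB2, at 380 in 1 library. For RELN only the RELN/IGFBP5 cluster stood apart, with 1375 ± 128 CPM (SD, n = 3 libraries).

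The cells behind these levels were unevenly spread over the ewes. The RELN/IGFBP5 cluster made up 1.02% and 0.196% of kept cells in LH replicates 1 and 2 and 4.05% and 3.42% in LL replicates 1 and 2. Both LL shares lay above both LH shares, and the exact two-sided permutation test gave p = 0.333, the smallest that 6 arrangements allow. Of the cells outside the T cell-like clusters the shares were 3.37%, 0.232%, 5.03% and 4.22%. The SELP/SELE cluster made up 0.0538%, 0.150%, 6.06% and 0.159% of cells in the same order, so that only LL replicate 1 was high. The IGFBP3/ABCG2 cluster was 0 of 5574 cells in LH replicate 1 and 0.647%, 1.51% and 0.766% in the others.

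**Figure D2:**
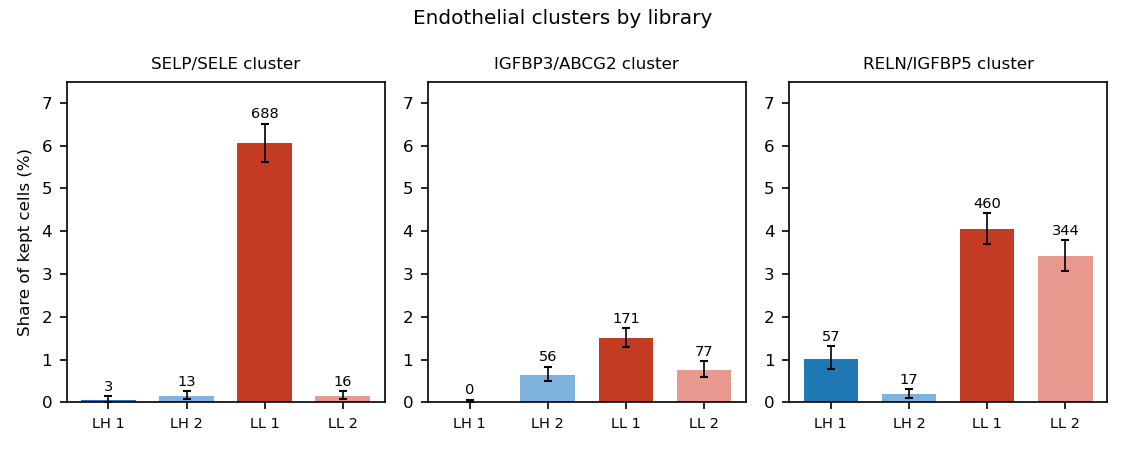
Share of kept cells (%) in the 3 endothelial clusters by library, with exact 95% binomial intervals as error bars and the number of cells above each bar. The SELP/SELE cluster holds 688 cells in LL replicate 1 and 3 to 16 in the other libraries, while the RELN/IGFBP5 cluster holds 460 and 344 cells in the LL libraries and 57 and 17 in the LH libraries.

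Within single cells of the 3 endothelial clusters, RELN and NR5A2 were the pair seen together less often than independent detection would give. In LL replicate 1, 112 of 1319 cells held both, against 146 expected from the 580 RELN-positive and 332 NR5A2-positive cells, a ratio of 0.77. In LL replicate 2, 5 of 437 cells held both against 13.7 expected, a ratio of 0.36. After thinning to 1000 UMIs per cell the ratios were 0.24 (7 cells against 28.9) and 0.21 (1 cell against 4.67). The LH libraries held 60 and 86 endothelial cells, too few to describe pairs. Cells of 1 library are not replicates, so no test was made.

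The other 9 of 10 pairs lay between 1.02 and 1.70 before thinning. Of the NR5A2-positive cells, 81.0% in LL replicate 1 and 66.7% of 24 cells in LL replicate 2 also held KDR, with ratios of 1.28 and 1.59. After thinning, KDR with NR5A2 gave 0.99 and 0.88 in LL replicates 1 and 2, so that pair was no longer above expectation. F8 with RELN gave 1.34 and 1.44 after thinning, the highest ratio of the 10 pairs in both libraries. RELN with GNG11 gave 1.23 and 1.10. KDR with RELN moved from 1.02 and 1.10 to 0.85 and 0.99. The reelin gene and the VEGF receptor gene therefore did not exclude each other: 64.8% of RELN-positive endothelial cells of LL replicate 1 and 46.0% of those of LL replicate 2 held KDR.

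**Figure D3:**
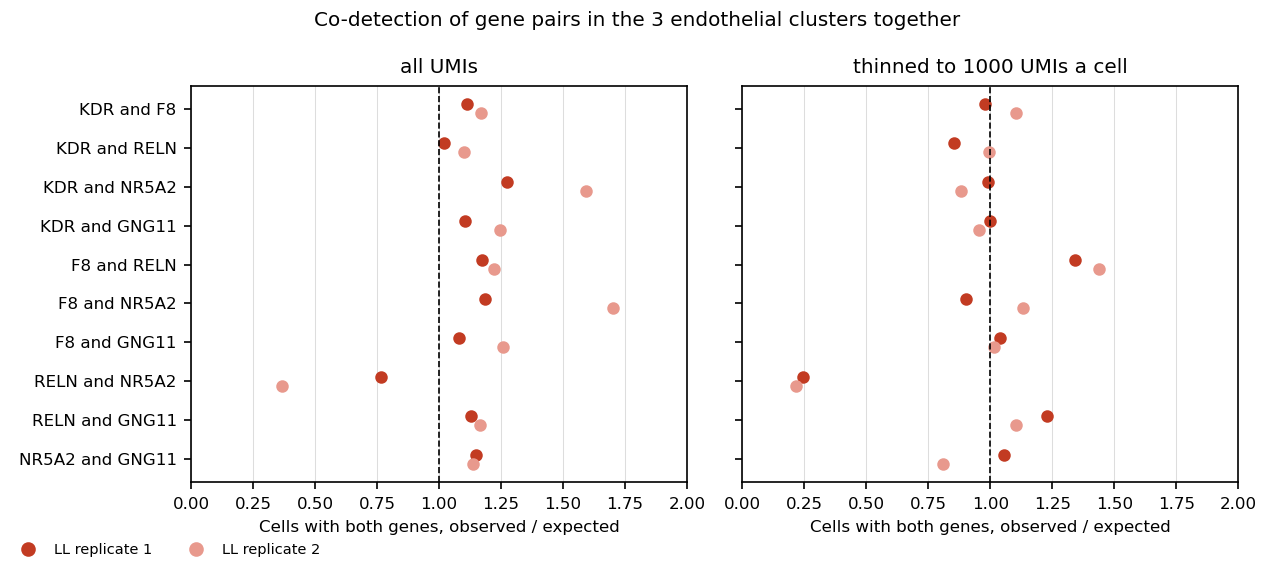
Ratio of observed to expected cells holding both genes of each of 10 pairs, in the 3 endothelial clusters together, for LL replicates 1 and 2, with all UMIs on the left and after thinning to 1000 UMIs a cell on the right; the dashed line marks a ratio of 1. RELN with NR5A2 lies at 0.77 and 0.36 before thinning and at 0.24 and 0.21 after it, and F8 with RELN lies highest after thinning. Expected counts are over the pooled clusters, so differences in level between clusters enter each ratio.

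Taken by detection class, cells with NR5A2 and without RELN lay mostly in the SELP/SELE and IGFBP3/ABCG2 clusters. Of 237 such cells in LL replicate 1, 172 lay in the SELP/SELE cluster, 46 in the IGFBP3/ABCG2 cluster and 2 in the RELN/IGFBP5 cluster. Of 25 in LL replicate 2, 5, 14 and 0 lay there in the same order, and 6 lay outside the 3 clusters. Cells with at least 3 RELN UMIs lay in the RELN/IGFBP5 cluster in 34 of 39 cases in LH replicate 1, 266 of 344 in LL replicate 1 and 137 of 145 in LL replicate 2. LH replicate 2 differed, with 8 of 50 there and 40 outside the 3 clusters. Cells holding at least 3 of the 5 genes numbered 48, 30, 699 and 163 in LH replicates 1 and 2 and LL replicates 1 and 2, and 87.5%, 70%, 97.9% and 90.2% of them lay in the 3 clusters.

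The exception to the division was RELN in the SELP/SELE cluster. In LL replicate 1 RELN stood there at 99.3 CPM (91.1 to 108), and 168 of 688 cells held it. The 13 SELP/SELE cells of LH replicate 2 gave 278 CPM (172 to 425) from 21 UMIs in 30.8% of the cells, and 0 of 16 cells in LL replicate 2 held a UMI of it. That allows a share of up to 18.8% of cells with a UMI and limits detection only. Of the 112 cells of LL replicate 1 with RELN and NR5A2, 94 lay in this cluster. In the 168 RELN-positive cells SELP was 1137 CPM, beside 1523 in the 520 cells without RELN. NR5A2 was 154 and 135 CPM and KDR 528 and 451 CPM in the same order. IGFBP5, which encodes a binding protein of insulin-like growth factors and leads the RELN/IGFBP5 cluster, was 16.0 and 5.59 CPM in the same cells. RELN UMIs were 9.78 times the IGFBP5 UMIs in this cluster and 0.788 times in the RELN/IGFBP5 cluster of the same library. The RELN-positive cells were deeper, with a median of 6742 UMIs against 3767.5. In the IGFBP3/ABCG2 cluster of the same library, 15 RELN-positive cells had a median of 14090 UMIs, against 2726.5 in the 156 without RELN. IGFBP5 was 95.3 CPM in those 15 cells and 6.67 in the 156. The source of RELN in the RELN-positive cells of both clusters was not tested. At 1000 UMIs per cell RELN was seen in 7.58% of the SELP/SELE cells, beside 0.30% of T cell-like cells of that library. Within this cluster the ratio of RELN with NR5A2 was 1.45 before thinning and 0.85 after it, when 5 cells held both.

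Gates on marker genes gave a second view of the same cells. Cells with at least 2 UMIs of SELP and SELE together and no other gate numbered 0, 4, 424 and 7 in LH replicates 1 and 2 and LL replicates 1 and 2. In LL replicate 1 they held KDR at 419 CPM, F8 at 183, NR5A2 at 142, GNG11 at 476 and RELN at 85.2, and 420 of the 424 lay in the SELP/SELE cluster. In the 7 cells of LL replicate 2 KDR was 358 CPM, NR5A2 was 154 and RELN was 0. No gate for lymphatic cells could be formed, again for want of markers with a symbol.

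The macrophage gate, on the complement gene C1QA and the mannose receptor gene MRC1, held RELN at 98.2, 8.23, 277 and 135 CPM in LH replicates 1 and 2 and LL replicates 1 and 2. Of its 234, 430, 301 and 132 cells, 5, 0, 35 and 11 lay in the RELN/IGFBP5 cluster. Without those cells RELN in the gate was 6.05, 8.23, 2.01 and 4.92 CPM, a range that includes that of T cell-like cells. The RELN/IGFBP5 cluster itself held MRC1 at 92.6, 53.7, 76.8 and 83.2 CPM and C1QA at 15.4, 53.7, 13.5 and 15.5 CPM in the same order. MRC1 is carried by macrophages and, in mice and humans, by lymphatic and sinusoidal endothelium.

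Outside endothelium KDR was highest in luminal-like cells. In these cells, marked by the epithelial genes EPCAM and CLDN4 and the milk protein genes PAEP and LTF, it was 28.3 and 31.5 CPM in LH replicates 1 and 2 and 53.6 and 63.9 in LL replicates 1 and 2. These levels lay above the 0.40 to 4.08 CPM of T cell-like cells in every library. Luminal-like cells were deep, with a median of 9187.5 to 13459 UMIs. At 1000 UMIs per cell KDR was seen in 3.97%, 3.56%, 5.39% and 6.51% of them, beside 0.03% to 0.45% of T cell-like cells. Outside the 3 endothelial clusters lay 71.1%, 94.4% and 86.3% of the KDR UMIs in LH replicates 1 and 2 and LL replicate 2, and 17.4% in LL replicate 1. Of the cells of LL replicate 2 with KDR and without RELN, 1025 of 1120 were luminal-like.

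KDR in luminal-like cells was higher in each LL than in each LH library, a comparison chosen after these values were seen. On normalized values it was 27.1, 31.6, 51.7 and 69.1 CPM, with a log2 change of 1.04 ± 0.22 (SE) from LH to LL. The edgeR quasi-likelihood test over 13512 genes gave an unadjusted p of 0.00406 and an adjusted p of 0.33, so KDR did not pass. The test called 2 genes (0.0148%), and 1301 (9.63%) had an unadjusted p under 0.05. Groups did not overlap in 41.8% of all genes tested, and both LL values lay above both LH values in 20.5%. DESeq2 gave KDR an adjusted p of 0.0181, in a range of 0.0181 to 0.981 over the other settings. The luminal clusters were unevenly filled, the LTF/PAEP cluster holding 5 and 25 cells in the LH and 445 and 1455 in the LL libraries. In that cluster KDR was 71.9 CPM in LH replicate 2 (25 cells, 42.6 to 114), 66.3 in LL replicate 1 and 77.6 in LL replicate 2, with no split between LH and LL. The part of this makeup in the luminal difference was not tested. Within the SPP1/ITGB6 cluster KDR was 42.4, 43.1, 73.9 and 57.9 CPM (log2 change 0.59 ± 0.22, edgeR adjusted p = 0.374). Within the SPP1/CRYAB cluster it was 23.3, 21.0, 59.0 and 45.1 CPM (1.23 ± 0.32, edgeR adjusted p = 0.113). In the SERPINA1/CLDN7 cluster the groups overlapped, with 6.95, 16.8, 8.62 and 18.8 CPM and a log2 change of 0.14 ± 0.58 (edgeR adjusted p = 0.981). The CDK1/MMP7 cluster, of 21 to 93 cells a library, gave 0, 4.80, 56.8 and 34.0 CPM and a fitted log2 change of 4.03 ± 0.96, which depends on a library at 0 (edgeR adjusted p = 0.300). F8, RELN and GNG11 gave log2 changes of 0.12 ± 0.27, -0.77 ± 0.40 and 0.99 ± 0.87 in luminal-like cells, none past the threshold. VEGFA, the ligand of KDR, was 16.1, 21.3, 23.3 and 42.1 CPM there, with a log2 change of 0.80 ± 0.34 and an edgeR adjusted p of 0.540.

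F8 outside endothelium was highest in the fibroblast-like DCN/FGF10 cluster. In that cluster F8 was 71.9 CPM in LL replicate 1 (604 cells, 59.7 to 85.9) and 141 in LL replicate 2 (278 cells, 112 to 176), and the LH libraries held 19 and 2 of its cells. The larger fibroblast-like cluster, DCN/SERPINF1, held F8 at 19.9 ± 10.9 CPM (SD, n = 4 libraries). Fibroblast-like cells together held it at 33.0, 9.35, 24.7 and 44.8 CPM in LH replicates 1 and 2 and LL replicates 1 and 2. In the IL1A/CD86 cluster, whose leading genes include C1QA and MRC1, F8 was 19.4 ± 3.8 CPM (SD, n = 4 libraries), above the T cell-like level in each library. Fibroblast-like cells as a whole held GNG11 at 196, 224, 234 and 183 CPM in LH replicates 1 and 2 and LL replicates 1 and 2, a narrow range. The TPSB2-led cluster held GNG11 at 380 CPM (291 to 489) in 76 cells of LL replicate 1. TPSB2 encodes a mast cell tryptase, and this cluster of 85 cells rests on that 1 marker and stays unnamed.

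RELN outside endothelium was low beside the RELN/IGFBP5 cluster. It was not low everywhere beside the IGFBP3/ABCG2 cluster, which held 12.6 ± 16.0 CPM (SD, n = 3 libraries). Of all RELN UMIs, 19.5%, 80.1%, 8.28% and 17.6% lay outside the 3 endothelial clusters in LH replicates 1 and 2 and LL replicates 1 and 2. In contractile-like clusters, marked by EDNRA, AVPR1A, AGTR1 and CNN1, RELN was 12.4 and 30.8 CPM in LH replicates 1 and 2 and 16.6 and 12.2 in LL replicates 1 and 2, above the T cell-like level in each library. A UMI was seen in 2.06% to 5.23% of those cells. The IGFBP7/EDNRA cluster, which stays unnamed, held RELN at 36.0 and 48.3 CPM in LH replicates 1 and 2 and 30.3 and 31.5 in LL replicates 1 and 2. Luminal-like cells held it at 1.90 to 4.69 CPM, close to the T cell-like level, and with their depth this came to 22, 169, 34 and 71 RELN UMIs, beside 13, 189, 93 and 60 in contractile-like cells. In the TPSB2-led cluster a level of 143 CPM came from 23 UMIs of 1 cell among 76, so it does not describe the cluster. NR5A2 was nearly absent elsewhere: over the 24 other clusters its mean level ran from 0 to 3.39 CPM with a median of 0.118. The 3 endothelial clusters held 71.4%, 71.0%, 98.2% and 88.9% of all NR5A2 UMIs in LH replicates 1 and 2 and LL replicates 1 and 2. These shares were 5 of 7, 22 of 31, 903 of 920 and 56 of 63 UMIs, so those of the LH libraries rest on few counts.

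In whole libraries, with all kept cells summed, 4 of the 5 genes were higher in both LL than in both LH libraries, F8 being the exception. That held for 15.6% of all 15238 genes tested. KDR gave 10.2 and 23.8 CPM in LH replicates 1 and 2 and 82.4 and 51.6 in LL replicates 1 and 2, on normalized values, with a log2 change of 1.98 ± 0.53. NR5A2 gave 0.271, 0.601, 17.7 and 1.16 CPM, a log2 change of 4.38 ± 1.48, so that LL replicate 1 stood far above the rest. Without LL replicate 1 that change was 1.38.

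RELN gave 21.6, 12.6, 70.2 and 23.4 CPM (1.45 ± 0.64), and GNG11 gave 20.9, 16.1, 139 and 35.1 (2.23 ± 0.72). F8 gave 16.7, 8.20, 43.2 and 14.5 (1.21 ± 0.68), with LL replicate 2 below LH replicate 1. LL replicate 1 was the highest library for all 5 genes, and without it the log2 changes were 1.60 for KDR, 0.46 for RELN, 0.93 for GNG11 and 0.22 for F8. The edgeR adjusted p was 0.974 for each, and edgeR called 0 of 15238 genes (0%), with 632 (4.15%) at an unadjusted p under 0.05 and 99 called by DESeq2. Of the 5, DESeq2 called NR5A2 alone, at an adjusted p of 0.0186, in a range of 0.0186 to 1.00 over the other settings. In summed libraries fewer cells of a type and less RNA per cell cannot be told apart.

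**Figure D4:**
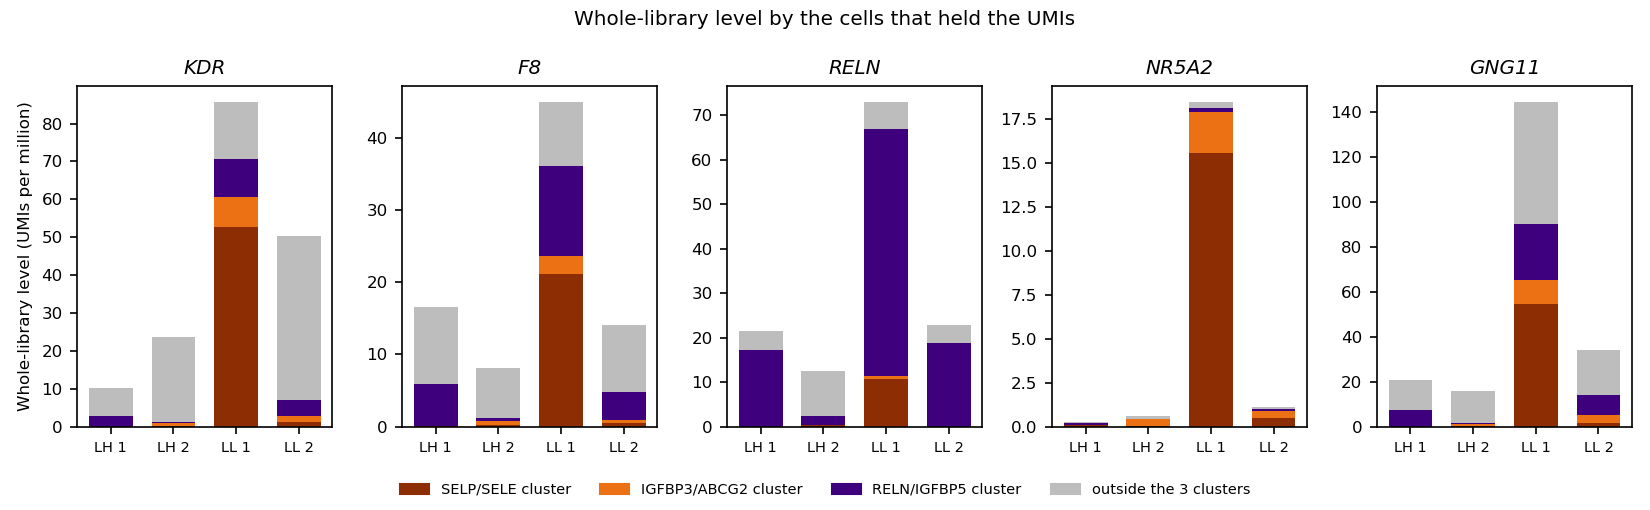
Whole-library level of each gene in UMIs per 1000000 UMIs of all kept cells, stacked by the cells that held the UMIs, with 1 bar per library, no normalization factor applied and a linear axis of its own for each gene. In LL replicate 1 the SELP/SELE cluster holds most KDR and NR5A2, KDR in the other 3 libraries lies mostly outside the endothelial clusters, and RELN lies mostly in the RELN/IGFBP5 cluster except in LH replicate 2.

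Outside the 3 endothelial clusters, a setting added after seeing the data, the log2 changes were 1.07 for KDR, 0.15 for F8, -0.37 for RELN and 1.59 for GNG11, and NR5A2 was too low to be tested. None passed the edgeR test. The share of cells with a GNG11 UMI there was 4.08% and 7.07% in LH and 17.4% and 9.12% in LL replicates 1 and 2, with both LL shares above both LH shares. Fibroblast-like cells, which carry GNG11, numbered 261, 29, 2185 and 1235 in LH replicates 1 and 2 and LL replicates 1 and 2, and their marker DCN stood at 701, 39.0, 3008 and 1237 CPM outside the 3 clusters. Their part in the GNG11 shares was not tested. For RELN it was 1.72%, 3.87%, 2.22% and 1.84%, with the groups overlapping (exact two-sided permutation p = 0.333 for GNG11 and 1 for RELN).

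Within the RELN/IGFBP5 cluster, the one endothelial cluster with at least 10 cells in every library, none of the 4 genes that could be tested passed the threshold. On normalized values KDR was 249, 204, 293 and 281 CPM in LH replicates 1 and 2 and LL replicates 1 and 2 (log2 change 0.29 ± 0.27, edgeR adjusted p = 0.820). F8 was 495, 374, 359 and 262 CPM (-0.53 ± 0.29, edgeR adjusted p = 0.684). For both genes the groups did not overlap, KDR being higher and F8 lower in LL, as 39.2% of the 6689 genes tested did not and 21.9% were higher in both LL libraries.

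RELN was 1492, 1836, 1611 and 1287 CPM (-0.19 ± 0.25, edgeR adjusted p = 0.885) and GNG11 648, 561, 716 and 594 (0.10 ± 0.26, edgeR adjusted p = 0.964), with overlapping groups. The test called 11 genes (0.164%), and 547 (8.18%) had an unadjusted p under 0.05. NR5A2 was below the filter on low counts. LH replicate 2 gave 17 cells to this comparison, and the size of difference it could detect was not tested. Without LH replicate 1 the log2 change was 0.61 for KDR and -0.14 for F8, and without LL replicate 2 that of F8 was -0.29.

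Over the 3 endothelial clusters together the log2 changes were 0.88 ± 0.35 for KDR, -0.52 ± 0.52 for F8, -0.46 ± 0.74 for RELN, 1.15 ± 0.76 for NR5A2 and 0.49 ± 0.46 for GNG11. Each had an edgeR adjusted p of 0.999. KDR, at 237, 183, 468 and 304 CPM, was the one with no overlap between LH and LL, which held for 32.9% of the 7488 genes tested. Without LL replicate 1 they were 0.55 for KDR, -0.59 for F8, -0.059 for RELN, 0.26 for NR5A2 and 0.52 for GNG11. Without LH replicate 1, F8 gave 0.43, RELN 0.93, NR5A2 0.57 and GNG11 1.27. Without LH replicate 2, F8 gave -1.04, RELN -1.11, NR5A2 2.46 and GNG11 0.023, and without LL replicate 2 RELN gave -0.97. edgeR called 0 genes (0%), with 327 (4.37%) at an unadjusted p under 0.05 and 11 called by DESeq2. The mix of clusters differed between libraries, as SELP shows, at 0, 45.0, 974 and 160 CPM, and its part in these values was not tested.

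Few partners of the 5 genes could be followed, since most had no symbol. Of the VEGF and angiopoietin list 2 of 23 genes had one, of coagulation and fibrinolysis 7 of 32, of reelin signalling 2 of 11, of G protein subunits 2 of 33, of NR5A2 partners and targets 4 of 17 and of endothelial adhesion 4 of 12. In whole libraries 0 genes of these lists passed the edgeR test in either direction. The median log2 change of their tested members was 1.02, 0.34, 0.85, 0.99, 0.82 and 3.83 in that order, beside -0.025 over all genes tested. The members tested numbered 2, 7, 2, 2, 2 and 2, so most medians rest on 2 genes. The first 4 medians include KDR, F8, RELN and GNG11 in that order, and the last 2 include none of the 5 genes. The tested NR5A2 partners were STAR and ABCG8, each at 2.06 CPM or less. Among the partners that reached 20 CPM the largest changes were those of SELP, at 0.465, 0.504, 144 and 3.88 CPM with a log2 change of 7.24 ± 1.99, and PLAUR, the urokinase receptor gene, at 42.1, 23.6, 17.4 and 12.6 CPM with -1.13 ± 0.40. VEGFA changed by 0.063 ± 0.47, ITGB1, a reelin-binding integrin subunit gene, by 0.25 ± 0.28, and GNAI2, a G protein alpha subunit gene, by -0.26 ± 0.30.

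Over 93 units of 1 cluster in 1 library, each of at least 20 cells, the pattern of each gene was set against those of 544 genes with a symbol. The units share libraries, depth and free RNA, so the correlations are descriptions. Most like NR5A2 were EDN1 (Pearson r = 0.87), the efflux transporter gene ABCG2 (0.80) and CYP1A1 (0.80), ahead of KDR (0.68) and F8 (0.61). KDR was most like NR5A2 (0.68), HYAL2 (0.67), F8 (0.65), EDN1 (0.65) and CD9 (0.62). F8 was most like IGFBP4 (0.71), HYAL2 (0.70), KDR (0.65), GNG11 (0.64) and ABCG2 (0.64).

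RELN was most like HYAL2 (0.63), GNG11 (0.61), F8 (0.58), IGFBP4 (0.57) and TSPAN9 (0.55), and GNG11 most like IGFBP4 (0.86), BMP4 (0.78), ABCG2 (0.77), FHL1 (0.76) and the water channel gene AQP1 (0.67). Among the 10 pairs of the 5 genes, RELN with NR5A2 had the lowest value, 0.27, and KDR with NR5A2 the highest.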

How the data were processed

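Gene-by-barcode UMI counts of 4 libraries were used as deposited. The authors made these counts with Cell Ranger (version 7.2.0 per the file headers, while the submitters' processing notes give 5.0.1 and list STAR and Seurat 3.2.0 as well). Which build was used is not given in the sources used here, so no coordinates or sequences are printed. The deposited barcodes numbered 5955 and 9380 (LH) and 12733 and 11178 (LL), with 28015149, 56178927, 60303230 and 65339993 UMIs.

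Barcodes with over 20% mitochondrial UMIs (13 genes) were left out. Doublets were called by a Scrublet-type score at 0.8% per 1000 barcodes, since its automatic threshold called 0 in LH replicate 1. This removed 279, 702, 1287 and 987 cells. Counts scaled to 10000 per cell were reduced to 2000 variable genes, the 5 genes left out, and 30 components. With 20 neighbours and resolution 1, Leiden clustering in scanpy 1.11.5 (leidenalg 0.10.2) gave 27 clusters. A cluster was named from at least 3 markers of at least 20 CPM and 3 times the median over clusters, and a gate needed 2 marker UMIs. CPM are UMIs per 1000000 UMIs of the cells summed.

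UMI sums per library were tested with edgeR 4.0.16 (TMM, quasi-likelihood, minimum count 10, Benjamini-Hochberg over all genes tested, threshold 0.05). DESeq2 1.42.0 was an alternative. A library is 1 ewe, with 2 per group. On simulated counts for the whole-library comparison (15305 genes), 99.5% of 200 genes changed 4-fold were recovered, with 8 false calls. The simulation gave every gene the same fixed dispersion and took the changed genes from those above the median level. It checks the code and does not give the power of the test on these libraries, whose spread was not simulated. Exact permutation tests were two-sided over 6 arrangements of the libraries. Intervals are 95% Clopper-Pearson or exact Poisson, and a count of 0 was given a limit of 3 counts. Named genes were the 5 genes, the 5 genes most like each by Pearson r of log2(CPM + 10), and of each pathway list the genes past the threshold or else the largest changes of at least 20 CPM. The 5 genes and the lists were chosen with earlier results of these data known.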

Additional observations from a re-analysis of the deposited data

How the results depend on the processing

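Of the alternatives computed for the main results, 311 kept direction and side of the threshold or moved little, 29 moved, 8 reversed and 2 newly passed it. The 311 include settings with little or no room to differ. The minimum of 50 cells in every library repeated the main fit of the 3 endothelial clusters. Resolutions 0.5 and 2 gave the same endothelial cell numbers as the main clusters. In whole libraries DESeq2 called 99 genes (edgeR 0) and NR5A2 at a log2 change of 4.43, and RELN reversed to -0.37 outside the 3 endothelial clusters. Leaving out each library gave 1.49 to 2.71 for KDR, 0.22 to 1.81 for F8, 0.46 to 2.04 for RELN, 1.38 to 5.29 for NR5A2 and 0.93 to 2.91 for GNG11, with 0 genes called each time. In the RELN/IGFBP5 cluster the 11 genes called became 117 without a filter on low counts, 1 with doublet calls kept and 25 to 294 without single libraries. GNG11 there gave -0.054 with doublet calls kept and -0.030 to 0.35 without single libraries, with 0.21 to 0.61 for KDR, -0.75 to -0.14 for F8 and -0.35 to -0.014 for RELN. In the 3 endothelial clusters DESeq2 called 11 genes, no filter 118 and single omissions 0 to 6, with 0.55 to 1.16 for KDR, -1.04 to 0.43 for F8, -1.11 to 0.93 for RELN, 0.26 to 2.46 for NR5A2 and 0.023 to 1.27 for GNG11. In luminal-like cells the 2 genes called became 309 with DESeq2, 50 without the filter, and 0 to 93 without single libraries. KDR there was called by DESeq2 at a log2 change of 1.04, and GNG11 ranged from -0.075 to 2.65 without single libraries. Within single luminal clusters 53 (SPP1/CRYAB), 0 (SERPINA1/CLDN7) and 1 (CDK1/MMP7) genes were called, and in SERPINA1/CLDN7 F8 reversed to -0.57 and RELN to 0.36. The causes were not tested.

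Same-numbered libraries share only a number. Their deviations correlated at 0.288 in whole libraries, 0.0383 in the RELN/IGFBP5 cluster, 0.00622 in luminal-like cells and -0.341 in the 3 endothelial clusters. With the replicate block the genes called were 0, 34, 1 and 0 in that order, and none of the 5 genes was called. The crossed pairing, added after seeing the data, called 0 genes in the 3 endothelial clusters.

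Thinning to 1000 UMIs and a minimum of 2 UMIs of each gene lowered shares of co-detection. RELN among NR5A2-positive cells of LL replicate 1 went from 33.7% to 6.80% and 26.7%. KDR among RELN-positive cells went from 64.8% to 26.0% and 42.3% in LL replicate 1 and from 46.0% to 22.5% and 21.1% in LL replicate 2. KDR among NR5A2-positive cells went with thinning from 81.0% to 30.1% and from 66.7% to 20.0%. Resolutions 0.5 and 2 gave the same cell numbers per library for the RELN/IGFBP5 cluster and for the SELP/SELE and IGFBP3/ABCG2 clusters together. Whether the SELP/SELE and IGFBP3/ABCG2 clusters stay apart at those resolutions was not tested. A minimum of 50 cells in every library left no test of the RELN/IGFBP5 cluster. That cluster held 17 cells in LH replicate 2.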
